A study of Mus musculus with 19 samples.

Results

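This comparison asks which transcripts differ between the brains of SCA3 transgenic and wild-type (wt) mice when both treatments of the study are pooled. All 19 arrays of the series entered it, 10 from SCA3 and 9 from wt mice. The rule was the genotype in each label, with the injected agent as a second factor, so that a difference is an average over placebo and drug and rests on more arrays than either treatment gives alone. Spinocerebellar ataxia type 3 (SCA3, Machado-Joseph disease) follows from an expanded CAG repeat in ATXN3, the gene of the deubiquitinating enzyme ataxin-3. The protein trims ubiquitin chains and works with the segregase VCP and with shuttle factors that bring substrates to the proteasome, and its long polyglutamine form aggregates in neurons. CCI-779 (temsirolimus) is an ester of rapamycin that inhibits the kinase mTOR, a brake on autophagy.

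All mice were male. Injections into the peritoneum began when the mice were 5 weeks old and went on for 6 weeks at 3 a week, with CCI-779 at 20 mg/kg or with a placebo. The groups were wt on placebo (4 arrays), SCA3 on placebo (5), wt on CCI-779 (5) and SCA3 on CCI-779 (5). Every group, controls included, had thus been injected, and no group was left untreated. The promoter, the repeat length and the founder line of the transgene, the strain of the mice and the brain region taken are not given in the sources used here. It is also not stated that each array came from its own mouse, so p-values here reflect only how far the arrays of a group scatter, and that scatter could be technical.

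The deposited intensities averaged 434 to 463 units per array over 45037 non-control probe sets, of which 20473 had a mean log2 intensity of at least 4. As a check of the labelled tissue, 33 of the 35 genes of synaptic vesicles and transmission on the array lay above that level, and their mean log2 intensity was 11.10 to 11.36 on the wt and 11.14 to 11.52 on the SCA3 arrays. A set of 3 arrays stood apart from the rest. On wt CCI-779 replicate 1 the 3′ actin control probes exceeded the 5′ ones by 2.55 on the log2 scale, against 0.88 to 1.55 on the other arrays, and the corresponding GAPDH value was 0.28 against -0.58 to -0.28. SCA3 CCI-779 replicates 2 and 5 lay at -42.4 and -39.2 on the second principal component, where the other arrays ran from -6.78 to 40.9. The RNA spiked into the hybridisation mix, which carries no mouse transcript, read higher in SCA3 by 0.28 (0.23 under placebo and 0.32 under CCI-779, exact two-sided permutation p = 0.0130 within treatments, 0.0780 after Benjamini-Hochberg adjustment over 6 array measures). The same spike-ins also separated the treatments, at 9.97 to 10.65 on the CCI-779 and 10.88 to 11.60 on the placebo arrays. Their part in any shift with treatment was not tested. Several results below are given with these array values, but not every result they touch is marked. For example, Cplx2, Cic, Rap1gds1 and C1qc, described below, read highest of all arrays on SCA3 CCI-779 replicates 2 and 5. The part of these arrays and of the spike-in level in a result was not tested unless a value without them is stated.

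No transcript passed the test. With limma on log2 intensity and Benjamini-Hochberg adjustment over all 45037 probe sets, 0 were higher and 0 lower in SCA3 at an adjusted p under 0.05 (0% called in each direction), and the smallest adjusted p was 0.161. At an unadjusted p under 0.05 there were 3010 probe sets (6.68%), of which 1248 were higher (2.77%) and 1762 lower (3.91%). Among the 20473 brighter probe sets the share was 13.2%, with 5.02% higher and 8.17% lower, and among the dim ones it was 1.26%. The surplus on the lower side was not stable. Of 10454 genes, each read by its brightest probe set, 587 were higher (5.62%) and 984 lower (9.41%), but without the 3 arrays that stood apart 693 were higher and 490 lower, and with the spike-in level in the model 686 were higher and 526 lower.

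For the effect averaged over the treatments, the precision of the arrays shows how large a difference could be missed in the brighter probe sets. Effects in 1 treatment alone or in dim probe sets are not covered by it. For the brighter probe sets the median standard error (SE) of the genotype difference was 0.07 on the log2 scale, and the median size of the difference was also 0.07. The 95% confidence interval lay inside a 1.5-fold change in either direction for 94.0% of them and inside a 2-fold change for 99.1%. A difference of at least 1.5-fold was estimated for 49 probe sets, 33 higher and 16 lower, and none of these passed the adjusted threshold. These intervals are per probe set and were not adjusted for the number of probe sets.

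**Figure D1:**
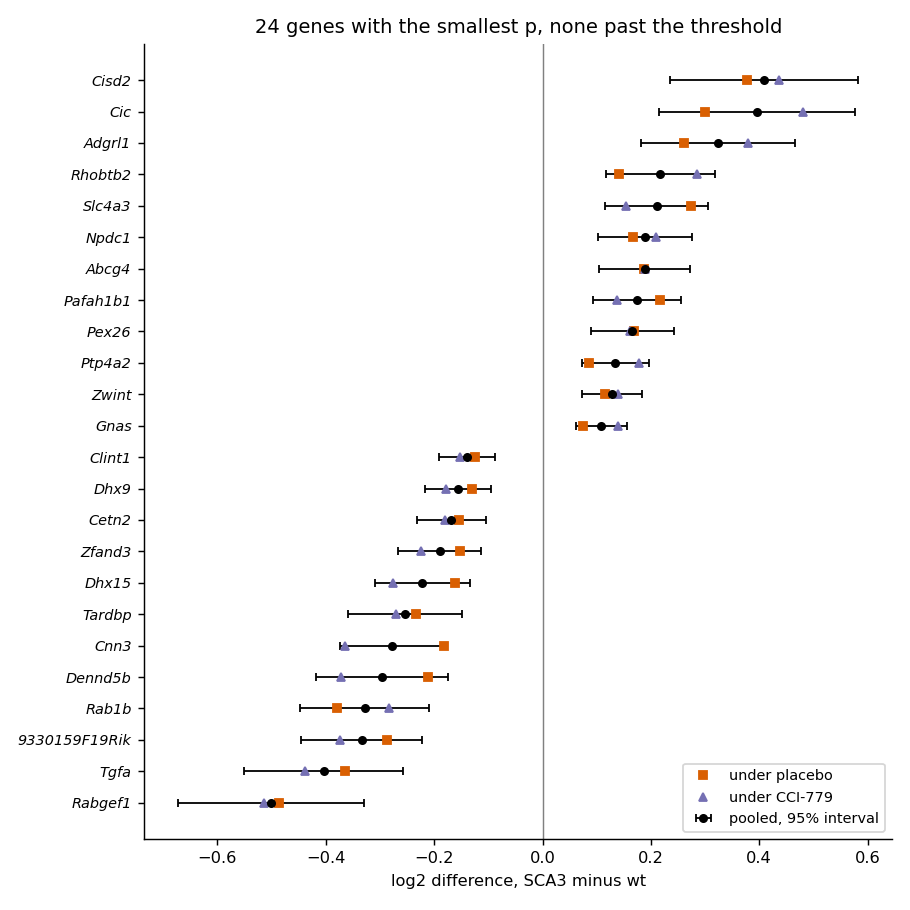
Genotype difference on the log2 scale (horizontal axis, SCA3 minus wt) for the 12 genes with the smallest p in each direction. Black points and bars are the pooled estimate with its 95% interval over 19 arrays, squares the estimate under placebo and triangles that under CCI-779. All 24 keep their sign in both treatments, and none passed the adjusted threshold.

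The 24 genes with the smallest p, 12 in each direction, are described next, and none of them reached the threshold. Their differences were small, from 1.10-fold to 1.41-fold on the lower side and from 1.08-fold to 1.33-fold on the higher side. The adjusted p ran from 0.161 to 0.245 for the lower genes and was 0.252 for each of the higher genes. All 12 lower genes were lower, and all 12 higher genes higher, under placebo and under CCI-779 alike, a feature that selection by the pooled p favours. Without the 3 arrays that stood apart all 24 kept their direction, with sizes of 0.12 to 0.43 on the log2 scale for the lower and 0.10 to 0.38 for the higher genes. With the spike-in level in the model they also all kept it, at 0.12 to 0.56 and 0.11 to 0.43. Selection by the pooled p favours both outcomes too, because the genes were chosen on these same arrays.

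The 12 lower genes are given first, and no shared function was tested for them. Cnn3 encodes calponin 3, which binds actin. Its log2 intensity was 10.46, 10.57, 10.43 and 10.51 on the wt placebo arrays and 10.17, 10.36, 10.31, 10.37 and 10.34 on the SCA3 placebo arrays. On CCI-779 it was 10.38, 10.20, 10.46, 10.40 and 10.35 in wt and 9.96, 9.89, 10.08, 10.14 and 9.90 in SCA3. Every SCA3 array thus lay below every wt array of its own treatment. The pooled difference was -0.28 (SE 0.04, 95% interval -0.37 to -0.18, adjusted p = 0.161). Cnn3 has other measured probe sets. Of these, 1 gave -0.32 (adjusted p = 0.181), the brightest gave -0.07 and the others -0.14 and 0.09. The probe sets of this gene thus did not agree in size or direction. Every Cnn3 probe set that read lower, the leading one included, carries the suffix x_at. This suffix marks probe sets that may also match other transcripts. The probe set that read higher, at 0.09, does not carry it. Of the 12 lower genes, 3 rest on a leading probe set with this suffix, against 6.57% of the brighter probe sets. Whether other transcripts contributed to these values was not tested.

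Rab1b is a small GTPase of transport from the endoplasmic reticulum to the Golgi. It read 8.81, 8.79, 8.58 and 8.75 on the wt placebo arrays against 8.38, 8.40, 8.26, 8.34 and 8.39 on the SCA3 placebo arrays. On the CCI-779 arrays the values were 8.38, 8.38, 8.55, 8.54 and 8.36 in wt and 7.84, 8.24, 8.09, 8.34 and 8.28 in SCA3. The genotypes did not overlap within either treatment, and the pooled difference was -0.33 (SE 0.06, adjusted p = 0.181). Rabgef1, the exchange factor of the endosomal GTPase Rab5, showed the largest difference among these genes. Its wt placebo arrays read 7.70, 7.73, 7.57 and 7.84, and its SCA3 placebo arrays 7.19, 7.08, 7.19, 7.61 and 7.04. Its CCI-779 arrays read 7.29, 7.09, 6.90, 6.97 and 6.92 in wt and 6.44, 6.56, 6.71, 6.69 and 6.19 in SCA3. The highest SCA3 placebo array overlapped the wt placebo group, and the difference was -0.50 (SE 0.08, 95% interval -0.67 to -0.33, adjusted p = 0.161). Leaving out that array, SCA3 placebo replicate 4, gave -0.54 and an adjusted p of 0.0311, the lowest on leaving out any 1 array. Over all such omissions the difference ran from -0.54 to -0.46 and the limma adjusted p from 0.0311 to 0.402. Both other probe sets of Rabgef1 were lower too, at -0.33 and -0.38 (adjusted p = 0.316 and 0.582).

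Clint1, which links clathrin to endosomal and Golgi membranes, differed by -0.14 (SE 0.02, adjusted p = 0.181), without overlap between the genotypes in either treatment. Dennd5b carries a DENN domain, the mark of exchange factors for Rab GTPases. Its log2 intensity was 10.88, 10.89, 10.86 and 10.79 in wt and 10.69, 10.58, 10.63, 10.69 and 10.62 in SCA3 on placebo, and 10.77, 10.64, 10.73, 10.59 and 10.70 in wt and 10.50, 10.001, 10.47, 10.44 and 10.15 in SCA3 on CCI-779. The difference of -0.30 (SE 0.06, adjusted p = 0.245) was widest on the 2 SCA3 CCI-779 arrays that stood apart, the lowest values of this probe set. Without the 3 arrays it was smaller, -0.20, but had an adjusted p of 0.0235. That was the lowest limma adjusted p of 32 alternatives, the highest being 0.731. On leaving out single arrays it ran from 0.139 to 0.446. Other Dennd5b probe sets gave 0.13 and -0.17 (adjusted p = 0.749 and 0.718). Tgfa, a ligand of the epidermal growth factor receptor, gave -0.40 (SE 0.07), and Cetn2, a centrin of centrioles and of DNA damage recognition, -0.17 (SE 0.03), both with an adjusted p of 0.181.

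Among the lower genes were also Tardbp, Dhx9 and Dhx15, whose proteins bind or unwind RNA. Tardbp encodes TDP-43, an RNA-binding protein that forms aggregates in motor neuron disease and frontotemporal dementia. Its log2 intensity on placebo was 10.44, 10.48, 10.35 and 10.55 in wt and 10.23, 10.31, 10.04, 10.35 and 10.18 in SCA3. On CCI-779 it was 10.41, 10.46, 10.38, 10.33 and 10.61 in wt and 10.13, 10.08, 10.31, 10.29 and 10.01 in SCA3. All SCA3 arrays lay below the wt arrays of their treatment, the highest SCA3 placebo array only just, and the difference was -0.25 (SE 0.05, adjusted p = 0.245). Its other probe sets were smaller at -0.12, -0.10, -0.07 and -0.05, each with an unadjusted limma p above 0.05. The helicases Dhx9 and Dhx15, the second a splicing factor, gave -0.16 (SE 0.03) and -0.22 (SE 0.04), each with an adjusted p of 0.233. Other probe sets of Dhx9 and Dhx15 gave -0.06 and -0.04 (adjusted p = 0.718 and 0.718). The smallest p of all belonged to the RIKEN locus 9330159F19Rik, which read 8.10, 8.33, 8.28 and 8.14 in wt and 8.01, 8.06, 7.81, 7.93 and 7.80 in SCA3 on placebo and 8.05, 7.94, 8.13, 7.90 and 7.80 in wt and 7.78, 7.60, 7.49, 7.53 and 7.54 in SCA3 on CCI-779. Its difference was -0.33 (SE 0.05, adjusted p = 0.161), and its other probe set gave -0.05. Zfand3 completes the lower group at -0.19 (SE 0.04), with further probe sets from -0.08 to 0.17.

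**Figure D2:**
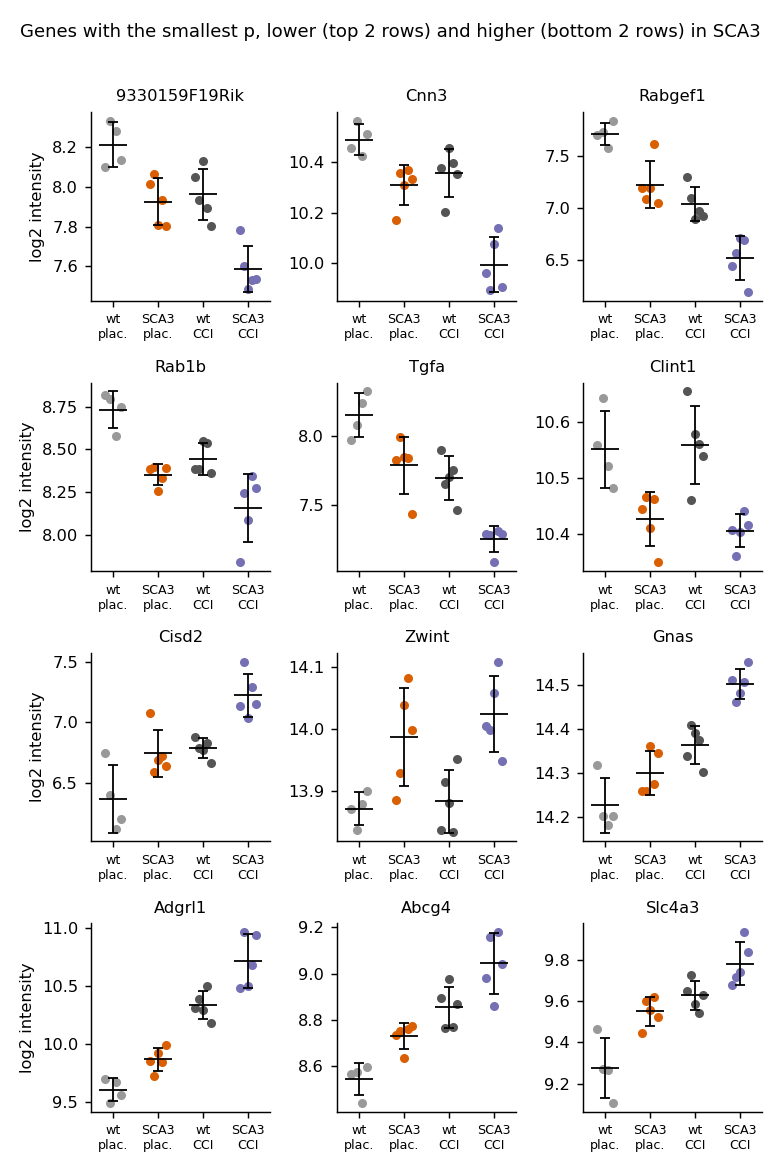
Log2 intensity (vertical axes, not starting at 0) of the 6 lower and the 6 higher genes with the smallest p. Each point is 1 array, the long bar is the group mean and the whiskers its SD, for wt and SCA3 on placebo (4 and 5 arrays) and on CCI-779 (5 and 5). The genotype shift appears within each treatment beside a shift with treatment in several genes such as Adgrl1.

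The higher genes included Gnas, the stimulatory G protein alpha subunit, Adgrl1, the adhesion receptor latrophilin 1, and Slc4a3, an anion exchanger, again with no test of a shared function. Gnas read 14.32, 14.20, 14.18 and 14.20 in wt and 14.26, 14.26, 14.36, 14.28 and 14.35 in SCA3 on placebo, and 14.34, 14.41, 14.39, 14.38 and 14.30 in wt and 14.51, 14.46, 14.48, 14.51 and 14.55 in SCA3 on CCI-779. The placebo groups overlapped through 1 wt array at 14.32, the CCI-779 groups did not, and the difference was 0.11 (SE 0.02). Adgrl1 gave 9.70, 9.49, 9.67 and 9.56 in wt and 9.85, 9.72, 9.93, 9.84 and 9.99 in SCA3 on placebo. On CCI-779 its values were 10.31, 10.39, 10.30, 10.50 and 10.18 in wt and 10.48, 10.97, 10.50, 10.68 and 10.94 in SCA3, so that the drug groups lay above the placebo groups in both genotypes. The spike-in level also separated the treatments, and its part in this shift was not tested. The genotype difference was 0.32 (SE 0.07, 95% interval 0.18 to 0.47), and a second probe set gave 0.20 (adjusted p = 0.391). Slc4a3 differed by 0.21 (SE 0.05), and Abcg4, a sterol transporter of the ABC family, by 0.19 (SE 0.04).

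Cisd2, an iron-sulphur protein of the endoplasmic reticulum and the outer mitochondrial membrane, had the largest difference of the higher genes. It read 6.75, 6.40, 6.12 and 6.20 in wt and 7.08, 6.59, 6.69, 6.72 and 6.64 in SCA3 on placebo and 6.88, 6.79, 6.77, 6.83 and 6.67 in wt and 7.14, 7.50, 7.04, 7.29 and 7.16 in SCA3 on CCI-779. The SCA3 arrays on CCI-779 all lay above the wt arrays, the placebo groups overlapped, and the difference was 0.41 (SE 0.08, 95% interval 0.23 to 0.58). A brighter Cisd2 probe set gave -0.05 and a dimmer one -0.01, so the higher value was seen on 1 probe set alone. Cic encodes capicua, a transcriptional repressor that binds ataxin-1, the polyglutamine protein of SCA1. It gave 0.40 (SE 0.09), with 0.30 under placebo and 0.48 under CCI-779. Pafah1b1, the LIS1 partner of dynein, gave 0.17 (SE 0.04), the phosphatase Ptp4a2 0.13 (SE 0.03) and the peroxisome assembly factor Pex26 0.17 (SE 0.04). Ptp4a2 was higher in the pooled fit on its other probe sets as well, at 0.31, 0.16 and 0.11. On the first of these, SCA3 CCI-779 replicates 2 and 5 read 9.85 and 9.78 against 8.57 to 8.97 on the other arrays. Its placebo difference was 0.11, and that of the last probe set was -0.01. The remaining genes were Rhobtb2 at 0.22, Npdc1 at 0.19 and the kinetochore gene Zwint at 0.13.

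Across the 24 genes, 16 had at least 1 other measured probe set, 36 in all. Of these, 27 pointed the same way as the leading probe set, 8 of them with an unadjusted limma p under 0.05, and 9 pointed the other way, 2 of them with such a p. The leading probe set was chosen for its small p and the others were not. No interaction with treatment passed the test for any of the 24 genes, with a smallest adjusted p of 0.798.

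A stricter description asks for genes whose arrays do not overlap at all. In 3 probe sets (0.00666% of those tested) every SCA3 array lay above every wt array within both treatments, and in 10 (0.0222%) every SCA3 array lay below. Besides Cnn3, Rab1b, Clint1, Dhx9, Dennd5b, Tardbp and 9330159F19Rik, the lower ones were Zbtb33, Eif3l and a dim probe set of Epdr1, and the higher ones were Dipk1b, Pfdn1 and Rap1gds1, names chosen after their values were seen. Zbtb33 encodes Kaiso, a repressor that binds methylated DNA, and differed by -0.32 (SE 0.07). Eif3l, a subunit of translation initiation factor eIF3, differed by -0.18 (SE 0.05). Dipk1b read 8.61, 8.61, 7.98 and 8.49 in wt and 8.96, 8.68, 9.17, 8.68 and 9.56 in SCA3 on placebo, and 8.15, 8.44, 8.68, 8.61 and 8.50 in wt and 8.68, 9.20, 8.84, 8.96 and 9.24 in SCA3 on CCI-779. This separation was narrow between the nearest arrays, while the mean difference was 0.55 (SE 0.12, 95% interval 0.29 to 0.81, adjusted p = 0.252). Pfdn1, a subunit of the prefoldin chaperone that hands actin and tubulin to the cytosolic chaperonin, read 10.72, 10.81, 10.55 and 10.82 in wt and 10.98, 10.95, 11.12, 10.88 and 11.35 in SCA3 on placebo. On CCI-779 it read 10.17, 10.60, 10.60, 10.43 and 10.59 in wt and 10.67, 10.63, 10.91, 10.85 and 11.10 in SCA3, and the difference was 0.34 (SE 0.08). Rap1gds1, an exchange factor of small GTPases, gave 0.23 (SE 0.06).

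The endogenous mouse gene of the disease protein, Atxn3, was lower in SCA3 without passing the threshold. Its log2 intensity was 8.41, 8.32, 8.31 and 8.25 in wt and 8.41, 8.05, 8.07, 8.06 and 8.34 in SCA3 on placebo. On CCI-779 it was 8.96, 8.71, 8.60, 8.89 and 8.77 in wt and 8.61, 8.41, 8.38, 8.48 and 8.13 in SCA3. The group means were 8.32 ± 0.07 (SD, n = 4), 8.18 ± 0.18 (n = 5), 8.79 ± 0.14 (n = 5) and 8.40 ± 0.18 (n = 5) in the same order. Under CCI-779 a single SCA3 array, at 8.61, reached the wt range, and under placebo the genotypes overlapped at 8.34 and 8.41. The pooled difference was -0.27 (SE 0.07, 95% interval -0.42 to -0.12, adjusted p = 0.346), made of -0.14 under placebo and -0.39 under CCI-779. The difference between those values did not pass the interaction test (adjusted p = 0.798). A second Atxn3 probe set was dim, with a mean log2 of 1.96. Whether the probe set also detects transcripts of the transgene was not tested, so it does not check the genotype labels. Prnp, the prion protein gene, gave 0.03 (95% interval -0.03 to 0.09) on its brighter and 0.12 (-0.02 to 0.26) on its other probe set.

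Usp15, a deubiquitinase like ataxin-3, varied by probe set. The probe set with a mean log2 of 6.79 read 6.33, 6.84, 6.74 and 6.99 in wt and 6.26, 6.07, 6.26, 5.79 and 6.30 in SCA3 on placebo. On CCI-779 it read 7.22, 6.86, 7.43, 7.44 and 7.16 in wt and 6.84, 7.62, 6.43, 6.87 and 7.58 in SCA3. The placebo groups did not overlap, the CCI-779 groups did, and the SCA3 arrays 2 and 5 on CCI-779, named above as standing apart, gave the highest values, 7.62 and 7.58. Its pooled difference was -0.36 (SE 0.15, adjusted p = 0.699). The brightest Usp15 probe set gave 0.01 (95% interval -0.15 to 0.17), and the others -0.06, 0.06 and -0.14.

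Arglu1, a splicing regulator, and Slc8a1, the sodium-calcium exchanger NCX1, had pooled values that averaged unlike differences under the treatments. On placebo the dimmer Arglu1 probe set read 6.96, 7.38, 7.21 and 7.56 in wt and 6.42, 6.18, 6.02, 5.84 and 5.88 in SCA3. On CCI-779 it read 5.97, 6.14, 6.49, 6.40 and 6.84 in wt and 5.95, 6.33, 6.39, 6.61 and 6.24 in SCA3, where the genotypes overlapped. The difference was -1.21 under placebo and -0.06 under CCI-779, which pooled to -0.60 (SE 0.18, adjusted p = 0.449). Its interaction had an adjusted p of 0.729. The brighter Arglu1 probe set gave 0.11 pooled, with -0.03 under placebo and 0.22 under CCI-779. For Slc8a1 the probe set with a mean log2 of 9.32 read 9.54, 9.84, 9.77 and 9.71 in wt and 9.21, 9.04, 8.78, 8.94 and 8.79 in SCA3 on placebo, against 9.44, 9.01, 9.45, 9.20 and 9.53 in wt and 9.26, 9.22, 9.48, 9.63 and 9.35 in SCA3 on CCI-779. Again the placebo groups were separate and the drug groups overlapped, with -0.77 and 0.06 pooling to -0.33 (SE 0.13, adjusted p of the interaction = 0.588). The other bright probe set had -0.10 and -0.30, pooled -0.21 (SE 0.07). Neither interaction passed over all probe sets, so a difference between the treatments was not shown.

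**Figure D3:**
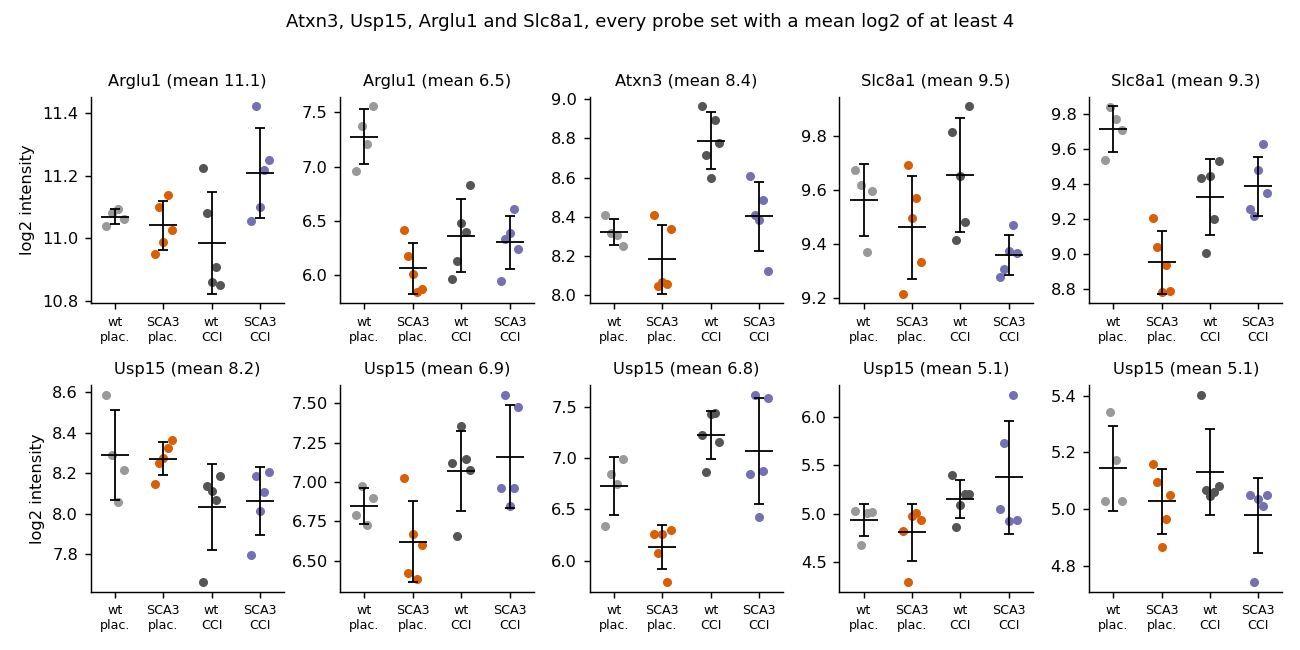
Log2 intensity (vertical axes, not starting at 0) of every probe set of Arglu1, Atxn3, Slc8a1 and Usp15 with a mean log2 of at least 4, titled by gene and mean. Points are arrays, long bars group means and whiskers SDs for wt and SCA3 on placebo (4 and 5) and CCI-779 (5 and 5). On placebo the dimmer Arglu1 probe set lies between 6.96 and 7.56 in wt and between 5.84 and 6.42 in SCA3, and the genotypes overlap on CCI-779.

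In the fit of 4 group means over all 19 arrays, the genotype effect gave 1 call under placebo and 1 under CCI-779 (0.00222% each), and no interaction passed. At an unadjusted limma p under 0.05 the counts were 1866 (4.14%), 3744 (8.31%) and 2028 (4.5%). The placebo call was a dim probe set of Trp53inp1, a p53-induced gene, with a mean log2 of 2.51 and a difference of -0.30 under placebo against 0.01 under CCI-779. Its pooled difference was -0.13 (adjusted p = 0.484), and its interaction had the smallest adjusted p, 0.0658. Under CCI-779 the call was Ybx3, a cold-shock domain protein that binds RNA and DNA. Its group means were 10.54 ± 0.06 (SD, n = 5) in wt and 10.04 ± 0.05 (n = 5) in SCA3 on CCI-779, and 10.73 ± 0.18 (n = 4) and 10.65 ± 0.09 (n = 5) on placebo. The difference was -0.50 under CCI-779 (limma adjusted p = 0.0153), -0.08 under placebo and -0.30 pooled (adjusted p = 0.252). The treatments share no array, so their effects can be set side by side. Across 10454 genes they correlated weakly (Pearson r = 0.200, Spearman rho = 0.218) and had the same sign in 55.3%, as a description, since genes are not independent replicates.

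**Figure D4:**
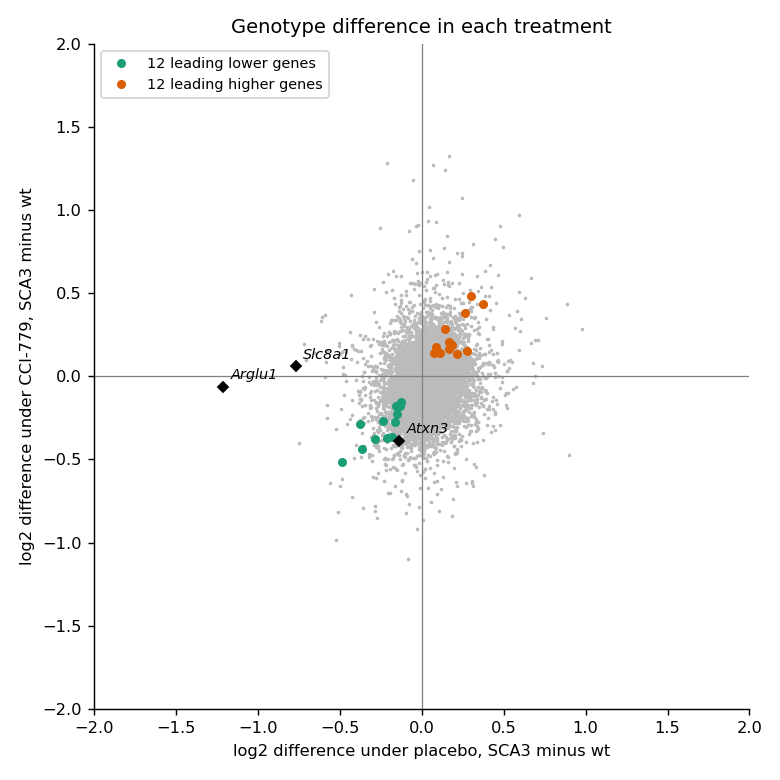
Genotype difference under placebo (horizontal axis) against that under CCI-779 (vertical axis), both in log2 units of SCA3 minus wt, for 10454 genes (grey). The 12 leading lower and 12 leading higher genes (coloured, by the probe set described) sit in the lower left and upper right of the plot. The black diamonds are single probe sets of Atxn3, of Arglu1 (the dimmer one) and of Slc8a1 (mean log2 of 9.32), and the last 2, which are not the brightest of their genes, lie far left near 0 on the vertical axis.

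Gene groups are described by how many measured members had an unadjusted limma p under 0.05 in each direction, beside 5.62% higher and 9.41% lower over all 10454 genes and their median difference of -0.01. No member of any of the 35 lists passed the adjusted threshold. In bulk brain RNA, fewer cells of a type and less RNA per cell cannot be told apart. The counts moved with the arrays and the model, so for the 11 lists where a count moved by 3 or more, both the counts without the 3 arrays that stood apart and those with the spike-in level in the model are given. For the other lists no count moved by more than 2 under either. Over all 10454 genes, 6.63% were higher and 4.69% lower without the 3 arrays, and 6.56% and 5.03% with the spike-in level. The spike-in level was itself higher in SCA3 and lower on the CCI-779 arrays, and its part in these counts was not tested. Of 33 genes of synaptic vesicles and transmission, 11 were higher and 3 lower, with a median of 0.07. Cplx2, the complexin that clamps vesicle fusion, read 11.36, 11.12, 11.26 and 11.13 in wt and 11.36, 11.38, 11.50, 11.47 and 11.52 in SCA3 on placebo and 11.70, 11.81, 11.59, 11.73 and 11.54 in wt and 11.97, 12.37, 11.78, 11.88 and 12.27 in SCA3 on CCI-779. Its difference was 0.31 (SE 0.07, adjusted p = 0.252), and every SCA3 placebo array lay above every wt placebo array. The synapsins Syn1 and Syn2 gave 0.16 and 0.16, Vamp2 of the fusion complex 0.24, its disassembly ATPase Nsf 0.14 and the scaffold Shank3 0.23. The receptor subunits Gria3 and Gabrg3 pointed the other way at -0.26 and -0.23. Without the 3 arrays that stood apart, 9 members were higher and 4 lower, with a median of 0.08, and with the spike-in level in the model 7 and 3, with a median of 0.08. Slc17a7, the vesicular glutamate transporter of cortical and cerebellar granule neurons, gave 0.73, but 12.48 and 12.40 on SCA3 CCI-779 replicates 2 and 5 stood against 9.22 to 10.29 on the other arrays, and without the 3 arrays it gave 0.15.

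Among lists of ubiquitin and protein folding genes, the share of lower members over all arrays was 22.8% for deubiquitinases and 30.6% for heat shock proteins and cochaperones, against 9.41% over all genes, but 12% for the unfolded protein response and 2.94% for the proteasome. Of 57 deubiquitinases, 1 was higher and 13 lower, with a median of -0.04. They included Vcpip1, an enzyme that works with VCP, at -0.25 and Usp1, Usp9x and Usp25 at -0.17, -0.16 and -0.16, while Zranb1 was the higher one at 0.43. Without the 3 arrays 5 were higher and 5 lower (8.77% each), against 6.63% higher and 4.69% lower of all genes. With the spike-in level 2 were higher and 7 lower (12.3%), against 5.03% lower of all genes. Of 36 heat shock proteins and cochaperones, 3 were higher and 11 lower (median -0.02). The stress-inducible Hspa1b gave -0.43, Hspb1 -0.21, the HSP110 gene Hsph1 -0.16 and the cochaperones Stip1 and Dnajb1 -0.18 and -0.11. Dnajc5, the cysteine string protein of synaptic vesicles, was higher at 0.16. Without the 3 arrays 3 members were higher and 4 lower (11.1%), and with the spike-in level 3 and 5 (13.9%). Among 25 genes of the unfolded protein response 0 were higher and 3 lower, the chaperones Canx (-0.15) and Hsp90b1 (-0.11) and the kinase inhibitor Dnajc3 (-0.22).

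Of 17 measured genes for ataxin-3 and its partners, 2 were higher and 3 lower. Beside Atxn3, Vcp was higher at 0.15 (adjusted p = 0.399), with 11.91, 11.80, 11.79 and 11.94 on the wt and 11.92, 11.95, 12.09, 12.14 and 12.18 on the SCA3 placebo arrays, where 1 wt array overlapped. On CCI-779 the groups overlapped more broadly, at 11.90 to 12.10 in wt and 12.01 to 12.22 in SCA3. The difference was 0.20 under placebo and 0.10 under CCI-779. The shuttle factor Rad23b gave 0.27 and Plaa, a VCP cofactor, -0.19. The proteasome list held 34 genes, of which 3 were higher and 1 lower, led by the core subunit Psma4 at 0.16. The proteasome counts without the 3 arrays were 3 and 1, and with the spike-in level 7 and 0. Among 7 other polyglutamine disease genes, Htt was higher at 0.24 (adjusted p = 0.54) and Atxn1 lower at -0.14 (adjusted p = 0.465). For autophagy 3 were higher and 1 lower of 35, with the initiating kinase Ulk1 at 0.31 and Wipi2 at 0.26, and for the mTOR pathway 2 were higher and 3 lower of 29, with Rps6kb2 at 0.38 and Pdpk1 at -0.18.

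Lists of RNA, protein and energy metabolism were split. Among 52 splicing factors 4 were higher and 11 lower, with Hnrnpm at -0.21, Hnrnpa2b1 at -0.09 and Srsf4 at -0.19 against Prpf8 at 0.13 and Son at 0.22. The counts without the 3 arrays were 4 and 8 (15.4% lower), and with the spike-in level 5 and 6 (11.5% lower), with a median of -0.01 against -0.04. Of 69 genes of oxidative phosphorylation 10 were higher and 4 lower, including the ATP synthase gene Atp5g3 at 0.11 and the complex III core gene Uqcrc1 at 0.15, whereas Cox7c gave -0.31. Leaving out the 3 arrays, 8 were higher (11.6%) and 2 lower, and with the spike-in level 16 (23.2%) and 0. Of 37 cytosolic ribosomal protein genes 1 was higher and 3 lower, with Rps6, the protein phosphorylated downstream of mTOR, at -0.17 (adjusted p = 0.252). Sterol synthesis had no member under an unadjusted p of 0.05 among 19, and fatty acid synthesis had Me1 at 0.16 as the only one of 16.

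Signalling lists gave similarly few. In calcium signalling and exchange 3 were higher and 4 lower of 33, with the endoplasmic pump Atp2a2 at 0.11 and Plcb1 at -0.27. These counts without the 3 arrays were 3 and 0, and with the spike-in level 5 and 2. The glucocorticoid response had the lowest median, -0.17 over 16 genes, with Klf9 at -0.18, Sult1a1 at -0.47 and Zbtb16 at -0.58. That median was 0.05 under placebo and -0.29 under CCI-779, and without the 3 arrays it was -0.06 with no member under an unadjusted p of 0.05. With the spike-in level in the model its sign turned, to 0.05, with 1 member higher and 0 lower, against 0 and 3. Of 17 circadian clock genes 2 were higher and 3 lower, with a median of -0.01. The positive limb genes Npas2, Arntl and Clock were lower at -0.30, -0.21 and -0.10. The repressors Per3 and Cry2 were higher at 0.11 and 0.09. Without the 3 arrays 1 was higher and 3 lower, with a median of 0.03. With the spike-in level 4 were higher and 1 lower, with a median of 0.02, so the balance turned. Times of day of sampling do not appear in the labels. Immediate early genes had Nr4a2 at -0.26, Egr3 at -0.26 and Homer1 at -0.14 lower of 17, and p53 targets and DNA repair 1 higher and 2 lower of 15, led by Parp1 at -0.17.

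Markers of cell types overlapped between the genotypes. The mean log2 intensity of 24 myelin and oligodendrocyte markers was 10.02 to 10.42 on the wt and 9.97 to 10.70 on the SCA3 arrays, with 3 markers higher and none lower, among them Mag at 0.27 and Pllp at 0.25. Leaving out the 3 arrays, 2 were higher, and with the spike-in level 0. Their median of 0.08 came from 0.19 under placebo and -0.02 under CCI-779. Of 14 markers of meninges and fibroblasts, 4 were higher and 0 lower (median 0.15), and their mean was 7.43 to 8.11 on the wt and 7.51 to 8.26 on the SCA3 arrays. Gjb2, a connexin of the meninges, read 5.86, 5.64, 5.36 and 5.63 in wt and 5.46, 6.17, 6.63, 5.97 and 6.26 in SCA3 on placebo and 6.12, 5.63, 5.59, 6.27 and 6.34 in wt and 5.73, 7.35, 6.78, 7.25 and 7.38 in SCA3 on CCI-779. The groups overlapped, and its difference of 0.70 (SE 0.21, adjusted p = 0.431) was 0.54 without the 3 arrays. Ptgds and Col1a1 gave 0.16 and 0.26. The labels do not say how much meninges stayed on each brain.

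Astrocyte markers numbered 16, of which 0 were higher and 4 lower, with the connexins Gja1 and Gjb6 at -0.14 and -0.15, Fgfr3 at -0.22 and Glul at -0.08. Their median was nevertheless above 0 at 0.05, and 11 of the 16 had a positive difference. Of 13 microglial markers 1 was higher, C1qc at 0.43, and 0 lower, with a median of 0.01 and 7 positive and 6 negative differences. Gpr34 did not enter these counts but pointed the other way at -0.42. Its lowest values of all arrays, 3.96 and 4.49, were on SCA3 CCI-779 replicates 2 and 5. Among 11 endothelial markers Itm2a (-0.19) and the glucose transporter Slc2a1 (-0.37) were lower. Oligodendrocyte precursors had Vcan at -0.42 and Pdgfra at -0.12 lower of 8, with a median of -0.09. Without the 3 arrays 0 were lower, with a median of -0.03, and with the spike-in level 1 was, with a median of -0.11. Vcan read highest, at 6.16, on wt CCI-779 replicate 1, and gave -0.09 under placebo and -0.72 under CCI-779. For choroid plexus Otx2 was the single one of 9, at 0.45, and neither the 3 markers of ependyma nor the 4 of blood had an unadjusted p under 0.05. The blood marker Alas2 ran from 5.09 to 8.54 over the 19 arrays, with its highest value in wt placebo replicate 2, and its genotype difference was -0.41 (SE 0.43).

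Neuronal markers varied by class. Of 21 striatal projection neuron markers, 4 were higher and 1 lower. Drd2, the dopamine receptor of the indirect pathway, read 5.48, 5.45, 5.23 and 5.79 in wt and 5.97, 5.87, 5.88, 5.99 and 5.99 in SCA3 on placebo, where the groups did not overlap. On CCI-779 it read 6.81, 6.00, 5.99, 6.12 and 5.89 in wt and 6.27, 7.08, 5.96, 6.67 and 7.05 in SCA3, where they did, and the arrays that stood apart had the highest values in each genotype. The difference was 0.45 (SE 0.14, adjusted p = 0.497), and 0.38 without those 3 arrays. Ppp1r1b, the phosphatase inhibitor DARPP-32, gave 0.20 and the transcription factor Meis2 -0.27 (adjusted p = 0.252). In Purkinje cells, neurons that carry the output of the cerebellar cortex, only the calcium channel gene Cacna1g of 15 markers had an unadjusted p under 0.05, at 0.26. The Purkinje median was 0.14 and the cerebellar granule cell median 0.15, with 1 of 14 granule cell markers higher and marker means of 9.20 to 10.04 on the wt and 9.53 to 9.97 on the SCA3 arrays for the first and 8.88 to 10.09 on the wt and 9.47 to 10.07 on the SCA3 arrays for the second. With the spike-in level in the model 8 of the 15 Purkinje markers were higher (53.3%, median 0.20) and 6 of the 14 granule cell markers (42.9%, median 0.45), against 6.56% of all genes in that model. Without the 3 arrays 1 and 0 were higher, with medians of 0.08 and 0.10. Among interneurons and neuropeptides Vip and Crh were lower at -0.25 and -0.27 of 15. Cortical and hippocampal markers had Lamp5 at -0.10 and Nr4a2 lower and Slc17a7 higher of 18, monoamine neurons Nr4a2 alone of 8, and hypothalamus, thalamus and brain stem Prkcd at 0.23 of 9.

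**Figure D5:**
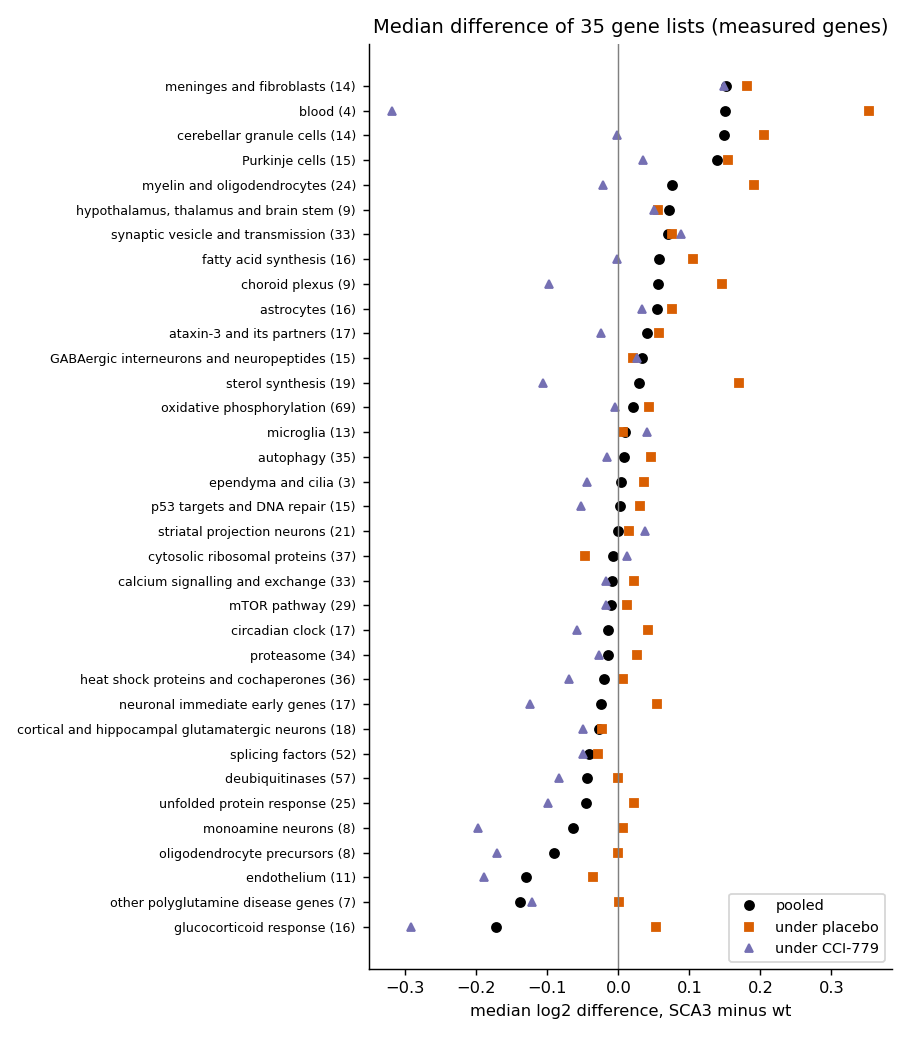
Median genotype difference (horizontal axis, log2, SCA3 minus wt) of each of the 35 gene lists, with the number of measured genes in brackets, pooled (circles), under placebo (squares) and under CCI-779 (triangles). Pooled medians run from -0.17 for the glucocorticoid response to 0.15 for meninges and fibroblasts, and the values of the treatments differ in sign for many lists.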

How the data were processed

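Linear intensity values of 45101 probe sets on 19 single-colour Affymetrix arrays were deposited as a single table. Per the submitters' processing notes the authors used GCRMA, which as usually run models background from base composition, equalises the arrays by quantiles and merges the probes of a set. This can compress differences of dim probe sets. No version or scanner setting is stated in the sources used here. The number of arrays limits the precision.

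Here log2 was taken with no pseudocount, and the 64 control probe sets served only as array measures. Genotype and treatment entered 1 additive fit with limma 3.58.1 in R 4.3.3 (lmFit, eBayes), two-sided, with Benjamini-Hochberg adjustment over 45037 probe sets and a threshold of 0.05. A fit of 4 group means gave the effects within treatments and the interaction. The 3 arrays that stand apart stayed in the main fit. A gene was its brightest probe set among the 34945 with 1 symbol (932 had several, 9160 none), and list members below a mean log2 of 4 were left out. As no gene passed, the next 12 genes per direction by p with a mean log2 of at least 4 were named. Also chosen were 5 fixed genes (Atxn3, Prnp, Usp15, Arglu1 and Slc8a1) and the 2 members of each list with the smallest p. Further probe sets of the leading and fixed genes were taken as well. Not all of these list members and further probe sets are described above. Further list members with an unadjusted p under 0.05, genes whose arrays did not overlap and genes called within 1 treatment were added after their values were seen. The members and lists were chosen with earlier results of these data known. Summed marker levels are given as ranges without the planned permutation test. The fit was tested on simulated data. The alternatives were filters, a pseudocount, normalizations, variance models, array weights, treatment terms, the replicate block and sets of arrays. A spike-in covariate and list counts without the 3 arrays were added after seeing the data, as was the count at an unadjusted p under 0.05.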

Additional observations from a re-analysis of the deposited data

Results flagged for a closer look

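In groups of 4 or 5 arrays, Dixon's test at its 95% critical value marked 32 of 456 groups of values as holding an array far from the others, where chance marks about 1 in 20. Values are log2 intensities unless stated, each with the range of the other arrays of its group, and no explanation was tested.

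Of these, 8 fell on wt CCI-779 replicate 1, the array whose label carries no number and whose 3′ to 5′ control values stood apart. It differed for Usp15 on the probe set with a mean log2 of 5.067 (5.40 against 5.05 to 5.08), Usp15 on the probe set with a mean log2 of 8.16 (7.66 against 8.07 to 8.19), Parp1 (10.57 against 10.04 to 10.20), Drd2 (6.81 against 5.89 to 6.12), GAPDH 3′ minus 5′ controls (0.28 against -0.44 to -0.39) and actin 3′ minus 5′ controls (2.55 against 1.20 to 1.53), and on the first principal component (-66.3 against -12.1 to 2.61) and the second principal component (40.9 against -6.8 to 0.17). Without this array the genotype count at an unadjusted p under 0.05 was 3010 again, with 1416 higher and 1594 lower, and no probe set passed the adjusted threshold.

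Among the wt placebo arrays, replicate 1 stood apart for Gnas (14.32 against 14.18 to 14.20) and Prnp (13.97 against 14.08 to 14.09). There, also, replicate 2 stood apart for Usp15 on the probe set with a mean log2 of 5.074 (4.68 against 5.01 to 5.03), Slc4a1 (4.81 against 3.85 to 3.89) and Alas2 (8.54 against 5.65 to 5.86). In the same group, replicate 3 stood apart for Cadps2 (10.50 against 10.81 to 10.88). Also there, replicate 4 stood apart for Pllp (9.67 against 9.46 to 9.48). Among the SCA3 placebo arrays, replicate 1 stood apart for Cisd2 (7.08 against 6.59 to 6.72). There, also, replicate 2 stood apart for Usp15 on the probe set with a mean log2 of 5.074 (4.29 against 4.82 to 5.01) and Zbtb33 (8.63 against 8.91 to 8.94). In the same group, replicate 3 stood apart for Abcg4 (8.63 against 8.74 to 8.77). Also there, replicate 4 stood apart for Rabgef1 (7.61 against 7.04 to 7.19) and GAPDH 3′ minus 5′ controls (-0.47 against -0.53 to -0.52). Of the same group, replicate 5 stood apart for Plcb1 (10.68 against 11.03 to 11.05). Among the wt CCI-779 arrays, replicate 2 stood apart for Otx2 (5.05 against 5.83 to 5.93) and Cfap126 (4.42 against 4.88 to 4.93). There, also, replicate 4 stood apart for Dynlrb2 (4.63 against 4.34 to 4.35). In the same group, replicate 5 stood apart for Tm7sf2 (5.67 against 5.77 to 5.78) and Rap1gds1 (11.85 against 11.97 to 11.99). Among the SCA3 CCI-779 arrays, replicate 1 stood apart for Slc2a1 (12.02 against 11.35 to 11.53). There, also, replicate 2 stood apart for Usp15 on the probe set with a mean log2 of 5.067 (4.74 against 5.01 to 5.05). In the same group, replicate 3 stood apart for Tgfa (7.09 against 7.28 to 7.31) and Cfap126 (4.80 against 4.92 to 4.94). Also there, replicate 5 stood apart for Dynlrb2 (4.47 against 4.31 to 4.35).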

How the results depend on the processing

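Over all alternatives run, 0 probe sets were called higher, and 0 were called lower with the filter, the pseudocount of 8, quantile normalization, median centring, trended variance, 4 group means, no treatment term, the replicate block, the spike-in covariate and a threshold of 0.10. Array weights called 9 lower (Rab1b, Rabgef1, Cetn2, Dhx9, Dhx15, Meaf6, Ccdc28a, Caap1 and Plppr1, adjusted p from 0.00361 to 0.0458). The placebo arrays alone called 1 (Zfp871, -0.77, adjusted p = 0.0498), the CCI-779 arrays alone 1 (Ybx3, adjusted p = 0.00375), and the fit without the 3 arrays that stand apart 2 (Dennd5b and a probe set shared by Gm10698 and Tmed2). Leaving out single arrays gave 0 to 1 lower calls and 0 higher, the 1 being Cnn3 (its probe set at mean log2 10.45) without wt CCI-779 replicate 2 and Rabgef1 without SCA3 placebo replicate 4. The count at an unadjusted p under 0.05, 3010 with 41.5% higher, was 2491 with the filter (37.0% higher), 2830 after median centring (30.04% higher), 1948 on placebo arrays alone, 2003 with no treatment term and 16909 with array weights, where 4010 had a mean log2 of at least 4. It was 2287 to 5115 leaving out 1 array, the highest without SCA3 CCI-779 replicate 4 (61.1% higher). The causes of these changes were not tested. Same-numbered arrays correlated from -0.31 to 0.29 (median 0.03) in their deviations, 9 of 24 pairs over 0.1, and 4 of 18 numbered arrays correlated best with their own number. Pairs of different number had a median of -0.005, with 30 of 97 over 0.1. The labels give only a shared number, and whether more is shared cannot be told from these correlations. The replicate block gave 0 and 0 calls and 2741 at an unadjusted p under 0.05. Of 3456 values for 108 named probe sets under the alternatives, 3429 kept direction and side of the threshold, 7 newly passed and 20 changed sign, namely the brighter Arglu1 probe set with -0.028 (placebo arrays alone), Slc8a1 at mean log2 9.32 with 0.062 (CCI-779 arrays alone), Usp15 at mean log2 5.074 with -0.082 (array weights) and -0.13 (placebo arrays alone), Usp15 at mean log2 8.16 with -0.0047 (median centring), -0.044 (array weights), -0.047 (replicate block), -0.016 (placebo arrays alone) and -0.075 (without 3 arrays that stand apart), Usp15 at mean log2 6.93 with 0.091 (CCI-779 arrays alone) and 0.042 (spike-in level as covariate), Cadps2 with 0.0046 (placebo arrays alone) and Ddc with 0.11 (placebo arrays alone) and 0.033 (spike-in level as covariate). Leaving out single arrays, the first of these Usp15 probe sets ran from -0.058 to 0.13 (below 0 without SCA3 CCI-779 replicate 4) and the second from -0.039 to 0.053 (below 0 on leaving out wt CCI-779 replicate 1, wt placebo replicate 3, SCA3 placebo replicate 5 or SCA3 CCI-779 replicate 2 or 5). Of 35 list medians, 4 changed sign with median centring, 7 without the 3 arrays, 2 with each gene's probe sets averaged, 0 with quantile normalization and 6 with the spike-in covariate, among them the glucocorticoid response (-0.17 to 0.05). The widest shift with the covariate was that of cerebellar granule cells (0.15 to 0.45), and that of ependyma (to 0.12) alone of 175 was past 1 SD of a list's mean level between arrays of a group, which is wide beside these medians. Dim probe sets, with a mean log2 under 4, limit what can be seen.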
